A study of Mus musculus with 48 samples.

Results

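Bone marrow-derived macrophages of LynAKO mice, which lack the longer splice form of the tyrosine kinase Lyn (LynA), were compared with those of wild-type (WT) mice over 3 treatments. The comparison took all libraries of these 2 genotypes, 24 of the 48 in the study, 12 per genotype. Each genotype had 4 mice, 2 male (numbers 1 and 2) and 2 female (numbers 3 and 4), and each mouse gave 1 untreated library (NT), 1 after 2 h of LPS at 2 ng/mL and 1 after 2 h of R848 at 20 ng/mL. Marrow was differentiated for 7 days with M-CSF and rested overnight without it, separately for each mouse, and polyadenylated RNA was sequenced as read pairs. The study's other genotypes, LynBKO (without the shorter form, LynB) and LynKO (without both), had the same numbers of libraries per treatment and are used here only for reference. The construction of the alleles, the strain and the age of the mice are not given in the labels.

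Lyn is a Src-family kinase of myeloid and B cells. It phosphorylates the activating ITAM motifs of Fc receptors and C-type lectin adaptors as well as the inhibitory ITIM motifs of receptors such as Sirpa and Cd22, so it can both start and restrain signalling. LPS is the bacterial ligand of Tlr4, and R848 is a synthetic ligand of Tlr7. Lyn is known as a modulator of signalling by both receptors in macrophages. LynA and LynB arise from 1 gene by the choice of a splice donor, and LynA alone carries an insert in its unique N-terminal region.

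The deposited counts are 1 number per gene, so reads of the 2 forms of Lyn (ENSMUSG00000042228, chr4:3678115-3813122 of GRCm38, plus strand) were summed and their proportions could not be measured.

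The 24 libraries held between 14974764 and 22783998 counts. The genes that define macrophages were high in all 24, with Adgre1 between 1319 and 2109 counts per 1000000 of the library (CPM, here and in marker sums by library total, elsewhere TMM-scaled) and Csf1r between 3084 and 5282, while the neutrophil marker Ly6g and the T cell marker Cd3e were at 0 in 20 libraries each. Xist and Y-linked transcripts matched the labelled sex in all 24, with a trace of Xist (2.37 CPM) in the untreated library of WT mouse 2. WT mouse 1 stood apart from the other mice. In all 3 of its libraries 6 autosomal genes of 13048 lay at least 4-fold outside the other 7 mice, Cd74 above and Mr1, Eps8l1, Slc15a2, H2-DMb1 and H2-Q6 below; no other mouse had such a gene. None of these 6 genes passed the test between genotypes in the main fit of the 24 libraries.

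Few genes differed between the genotypes. One limma model was fitted to 13463 expressed genes with treatment as a covariate and the 3 libraries of a mouse correlated, and a gene was called where its Benjamini-Hochberg adjusted p was below 0.05. In LynAKO 20 genes were called (0.149% of those tested), 10 higher (0.0743%) and 10 lower (0.0743%). The higher genes included Capn11, Xkr6, Slco2b1, Cpe, Cd5l, Ap4s1, G2e3, Emp2 and Ctsl, and the lower genes were Gm13835, Fgfbp3, Atad2b, Ide, Tmem181b-ps, Lyn, Clec4n, Slc45a4, Pla2g7 and Lyz2. At an unadjusted p below 0.05 there were 384 higher genes (2.85%) and 300 lower (2.23%). The median log2 fold change over all genes was -0.0022, and 88.1% of genes had an absolute log2 fold change below 0.25. The 95% interval lay within 0.5 log2 units of 0 for 73.9% of genes.

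The number of calls depended on how the mice entered the model. With counts summed over the 3 libraries of each mouse, edgeR's quasi-likelihood test called 1 gene, Lyn, and limma on the same sums, added after seeing the data, also called Lyn alone. DESeq2 on these sums called 19 genes, 10 of them among the 20. The limma fit of 24 libraries made more false calls than its threshold allows on 1 simulated data set. That set gave all genes the same mouse share of the spread. There edgeR on the sums made fewer false calls than limma. With the replicate number as a block (the numbers share sex), limma called 83 genes, among them all of the 20. Leaving out 1 mouse at a time gave 11 to 33 calls, 11 without WT mouse 4 and 33 without LynAKO mouse 2. Without WT mouse 1, 15 genes were called, 13 of them among the 20. The 7 that were not called were then Slco2b1 (limma adjusted p = 0.0725), Pla2g7 (0.107), Clec4n (0.132), Ctsl (0.163), Lyz2 (0.170), Tmem181b-ps (0.215) and Cpe (0.247). Lyn, Capn11, Ap4s1, Ide, Atad2b, Cd5l, Gm13835 and G2e3 were called whichever mouse was left out.

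**Figure D1:**
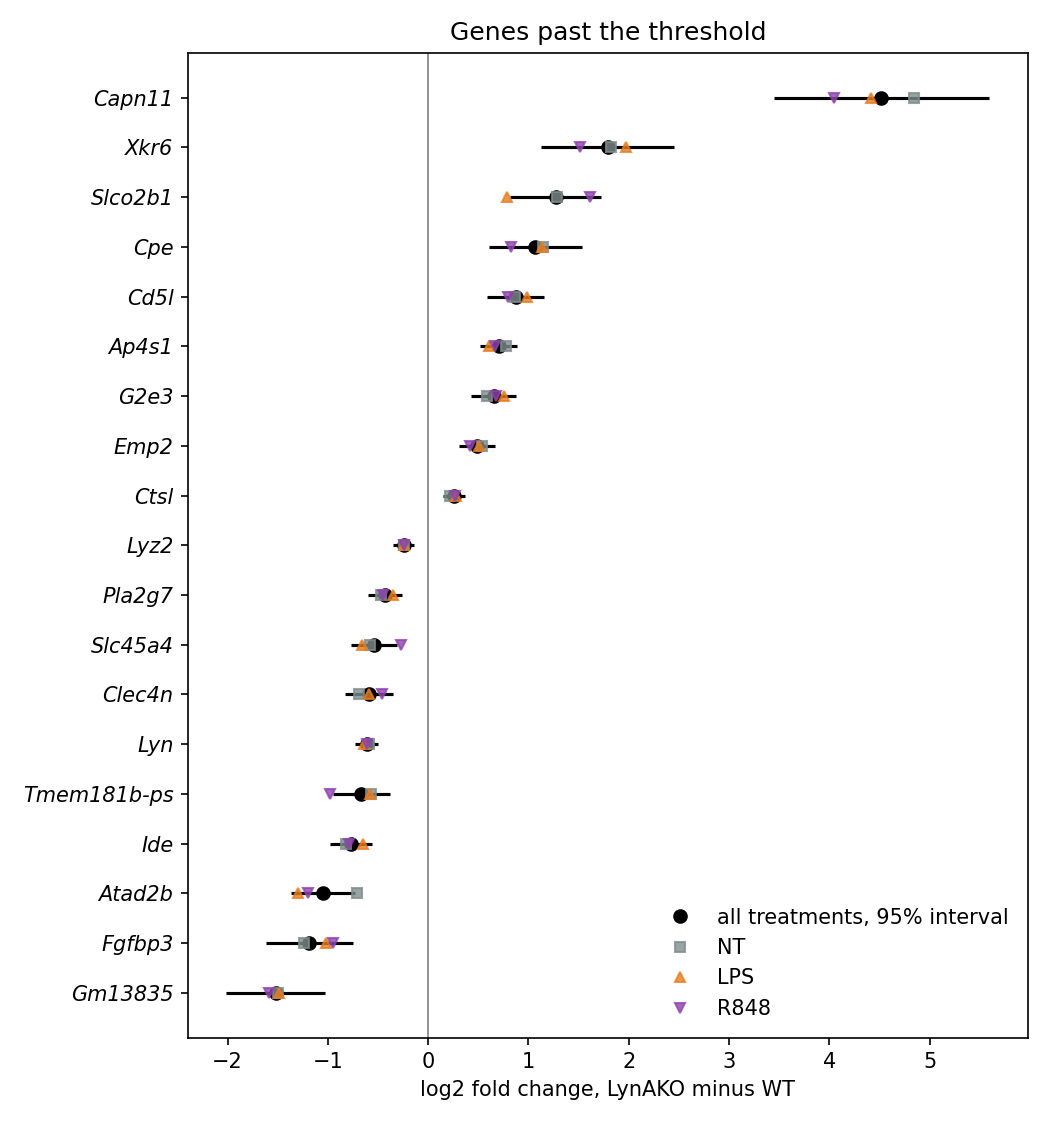
Log2 fold change of LynAKO minus WT for 19 of the called genes. Black dots and lines are the estimate common to the treatments with its 95% interval, and squares, upward and downward triangles are NT, LPS and R848. The common intervals lie on 1 side of 0, and for each gene the 3 treatments lie on the same side.

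Lyn itself was lower in LynAKO at every treatment. In untreated WT macrophages Lyn stood at 187.5, 174.0, 168.1 and 163.5 CPM in mice 1 to 4, and in LynAKO at 104.5, 128.5, 121.6 and 107.6 CPM. After LPS the WT libraries held 348.7, 338.9, 337.8 and 310.3 CPM and the LynAKO libraries 204.2, 252.4, 200.8 and 200.1 CPM. After R848 they held 349.7, 337.9, 386.2 and 391.9 CPM in WT and 221.1, 254.3, 243.0 and 241.9 CPM in LynAKO. No LynAKO library reached the lowest WT library of its treatment. The common log2 fold change was -0.61 (SE 0.055, limma adjusted p = 4.50e-08), a fold of 0.654 with a 95% interval from 0.605 to 0.706. The estimates were -0.59 in NT, -0.64 after LPS and -0.61 after R848. Lyn stood higher after both ligands in both genotypes, by 0.95 (LPS) and 1.08 (R848) log2 units in WT and by 0.89 and 1.06 in LynAKO, without overlap with NT. Lyn was called in all 23 alternative settings, with log2 fold changes from -0.67 to -0.58 and a highest adjusted p of 0.00830, by edgeR on the sums per mouse.

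Measured against the same WT libraries in a fit of all 48, Lyn differed by -0.57 (SE 0.068) in LynBKO and by -1.72 (SE 0.070) in LynKO. Lyn mRNA in LynAKO was 1.11 log2 units above LynKO (SE 0.071, limma adjusted p = 6.0e-17) and 0.05 below LynBKO, a difference that did not pass (adjusted p = 0.90). The Src-family kinases named here were, apart from Lyn, not called in LynAKO. Fgr had a common log2 fold change of -0.19 (95% interval -0.34 to -0.03, adjusted p = 0.743), Src of 0.08 (-0.15 to 0.32) and Fyn of 0.00 (-0.16 to 0.16).

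**Figure D2:**
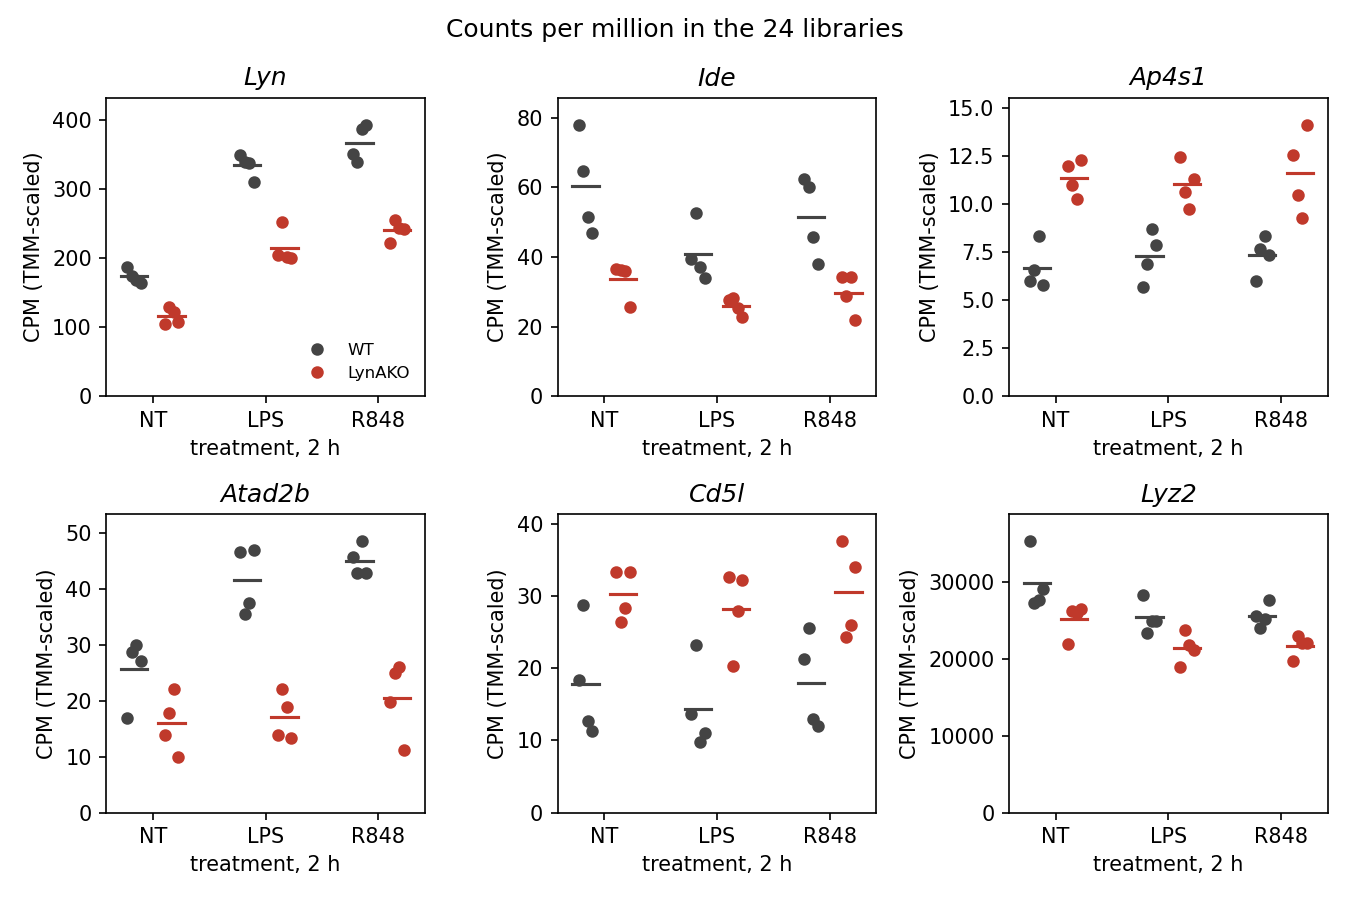
TMM-scaled CPM of 6 called genes in each of the 24 libraries by treatment (grey WT, red LynAKO, points are libraries, bars the mean of 4). Lyn, Ide and Ap4s1 separate the genotypes without overlap at each treatment, while Cd5l of WT mouse 2 lies among the LynAKO points.

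Several called genes lay close together on the chromosome. Ap4s1 (chr12:51691033-51744786) encodes the small subunit of the AP-4 adaptor complex, which sorts cargo at the trans-Golgi network. Its lowest, median and highest CPM were 5.71, 7.12 and 8.72 in WT and 9.29, 11.2 and 14.1 in LynAKO. All 12 LynAKO libraries were above all 12 WT libraries, with a log2 fold change of 0.70 (SE 0.092, limma adjusted p = 7.93e-05). G2e3 (chr12:51348061-51376986), an E3 ubiquitin ligase gene, held 5.25, 8.10 and 14.2 CPM in WT and 9.86, 12.3 and 18.4 CPM in LynAKO. It rose by 0.65 (SE 0.11, limma adjusted p = 0.00284), although the libraries overlapped at each treatment, WT mouse 3 being high.

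Around Ap4s1, 10 genes within 1 Mb were tested, and 7 of them (70%) had an unadjusted p below 0.05. The 4 higher genes were Ap4s1, G2e3, Dtd2 (0.45, limma adjusted p = 0.0604) and Arhgap5 (0.40), and the 3 lower included Scfd1 (-0.22) and Strn3 (-0.19), so the direction was mixed. The windows around Ap4s1, Ide and Lyn were centred on called genes. Their shares count the centre and any called neighbour, which were below 0.05 by selection, so the shares are a description. Over all genes 2.85% were higher and 2.23% lower at an unadjusted p below 0.05. Ap4s1 overlaps Strn3 on the opposite strand, and no strand setting of the counting is given in the sources used here, so reads in that overlap cannot be assigned. Against the same WT libraries Ap4s1 stood at 0.46 in LynBKO and 0.63 in LynKO, and Dtd2 at 0.45 and 0.43.

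Ide (chr19:37268743-37337852), the insulin-degrading metalloprotease, was lower in LynAKO. Its lowest, median and highest CPM were 34.1, 49.3 and 77.9 in WT and 21.9, 28.5 and 36.7 in LynAKO, with no overlap within any treatment. The log2 fold change was -0.77 (SE 0.10, limma adjusted p = 8.73e-05). Fgfbp3 (chr19:36917550-36919615), a secreted FGF-binding protein, held 0.348, 1.04 and 3.02 CPM in WT and 0.202, 0.430 and 1.32 CPM in LynAKO. It fell by 1.18 log2 units (SE 0.21, limma adjusted p = 0.00586) and was not called without LynAKO mouse 3 (adjusted p = 0.0566). Within 1 Mb of Ide 5 of 15 tested genes (33.3%) had an unadjusted p below 0.05: Ide, Fgfbp3, Btaf1 (-0.32) and Exoc6 (-0.21) lower and Hhex (0.13) higher. A stretch with Ide and Fgfbp3 is known to vary in copy number between C57BL/6J animals, and copy number was not tested here. Around Lyn, 10 genes within 1 Mb were tested and only Lyn had such a p (10%). Within 5 Mb the share, again with the called genes counted, was 26.7% of 30 genes around Ap4s1, 9.86% of 71 around Ide and 5.88% of 17 around Lyn.

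**Figure D3:**
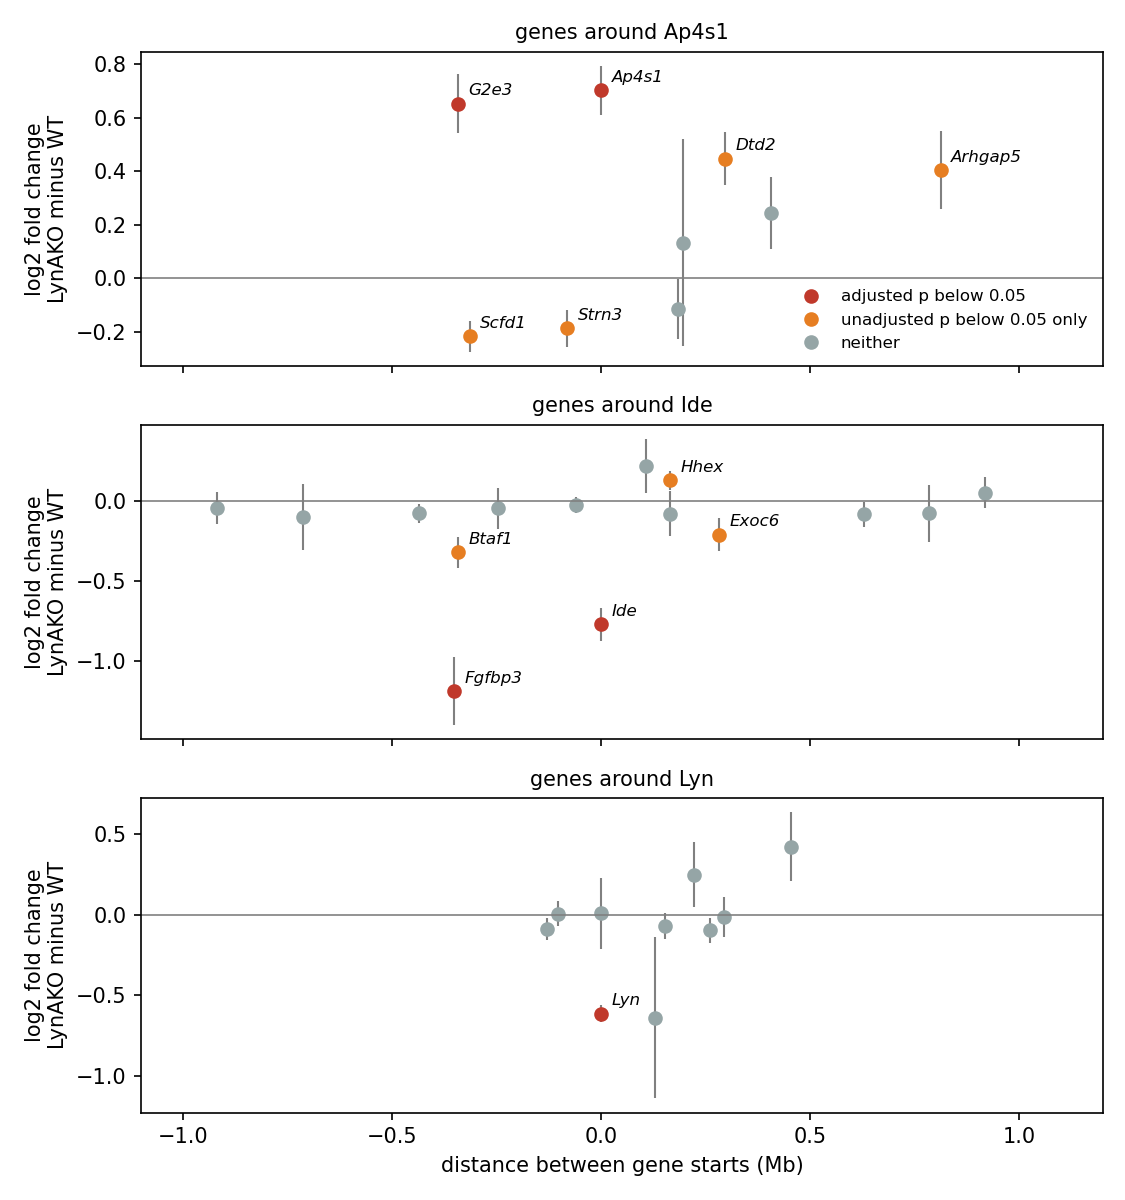
Log2 fold change of LynAKO minus WT (bars, SE) against the distance between gene starts for genes within 1 Mb of Ap4s1, Ide and Lyn. Red points passed the adjusted threshold, orange points only an unadjusted p below 0.05. Around Ap4s1 coloured points lie on both sides of 0, and around Lyn only Lyn is coloured.

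Further called genes encode housekeeping, nuclear or little-studied products. Atad2b, a bromodomain ATPase, held 16.9, 40.1 and 48.5 CPM in WT (lowest, median, highest) and 9.92, 18.3 and 26.1 CPM in LynAKO. Its log2 fold change was -1.05 (SE 0.16, limma adjusted p = 0.000511). The libraries did not overlap after LPS or R848 but did in NT, where WT mouse 1 was low at 16.9 CPM. By treatment the estimates were -0.71 (SE 0.20), -1.29 (SE 0.22) and -1.20 (SE 0.21), and the interaction had an unadjusted p of 0.068 and did not pass. Xkr6, of the XK-related membrane proteins, held 0.139, 1.15 and 2.70 CPM in WT and 1.38, 2.75 and 4.13 in LynAKO, a log2 fold change of 1.79 (SE 0.32, limma adjusted p = 0.00586). WT mouse 4 was the low one, with at most 0.179 CPM, and without it Xkr6 was not called (adjusted p = 0.0604).

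The largest fold among the 20 belonged to Capn11, a calpain protease known mainly from testis. In WT it was read in mouse 3, at 0.785, 0.633 and 0.558 CPM in NT, LPS and R848, and in the other 3 mice it was at 0 in 6 of 9 libraries and at most 0.285 CPM. In LynAKO it was present in all 12 libraries, from 0.693 to 3.31 CPM. The fitted log2 fold change of 4.52 (SE 0.53, limma adjusted p = 1.03e-05) depends on the prior count added to the WT libraries at 0, and the mean CPM was 0.199 in WT and 2.03 in LynAKO. Capn11 was not called on the sums per mouse (edgeR adjusted p = 0.277, limma 0.0600).

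Of the pseudogenes, Gm13835 held 1.68, 4.49 and 7.24 CPM in WT and 0.897, 1.45 and 3.12 CPM in LynAKO, with no overlap within a treatment. Its log2 fold change was -1.52 (SE 0.24, limma adjusted p = 0.00132). Tmem181b-ps held 3.87, 11.8 and 22.1 CPM in WT and 4.50, 6.14 and 11.7 CPM in LynAKO (-0.67, SE 0.14, limma adjusted p = 0.0354), its libraries overlapped at 2 of 3 treatments, and it was called in 1 of the 8 fits that left out a mouse. Both are near-copies of other genes, so how the counting assigned shared reads makes their values uncertain. Slc45a4, a solute carrier, held 5.99, 9.27 and 48.2 CPM in WT and 3.32, 6.80 and 29.2 CPM in LynAKO (-0.54, SE 0.11, limma adjusted p = 0.0281), with overlap at each treatment, and was called in 4 of those 8 fits. The untreated libraries of both genotypes were the high ones.

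The remaining called genes named here encode secreted, lysosomal or surface proteins. Among secreted and lysosomal proteins, Cd5l, a scavenger-receptor family protein also known as AIM, held 9.84, 13.3 and 28.8 CPM in WT and 20.3, 30.3 and 37.6 CPM in LynAKO. It rose by 0.87 (SE 0.14, limma adjusted p = 0.00132), with WT mouse 2 inside the LynAKO range. Lyz2, the lysozyme of myeloid cells, held 23380, 26490 and 35330 CPM in WT and 18980, 22140 and 26520 CPM in LynAKO. It fell by 0.24 (SE 0.051, limma adjusted p = 0.0363), with no overlap in NT or R848, and was called in only 2 of the 8 fits that left out a mouse. Ctsl, the lysosomal protease cathepsin L, held 988, 1092 and 1741 CPM in WT and 1127, 1411 and 2246 CPM in LynAKO (0.26, SE 0.053, limma adjusted p = 0.0309), and was called in 3 of those 8 fits.

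Pla2g7, which hydrolyses platelet-activating factor, held 80.0, 119 and 195 CPM in WT and 67.6, 92.6 and 123 CPM in LynAKO. It fell by 0.43 (SE 0.083, limma adjusted p = 0.0154), overlapped at each treatment and was called in 3 of the 8 fits that left out a mouse. Cpe, carboxypeptidase E, held 0.836, 1.37 and 3.01 CPM in WT and 1.91, 2.74 and 7.23 CPM in LynAKO (1.07, SE 0.23, limma adjusted p = 0.0366). LynAKO mouse 1 was the highest at each treatment, and Cpe too was called in 3 of those fits.

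Among surface proteins, Clec4n (Dectin-2), a fungal-mannan receptor that signals through the ITAM adaptor Fcer1g, held 25.5, 31.6 and 48.4 CPM in WT and 14.1, 23.6 and 30.5 CPM in LynAKO. It fell by 0.59 (SE 0.12, limma adjusted p = 0.0208) and was called in 5 of the 8 fits that left out a mouse. Emp2, a tetraspan membrane protein, held 15.5, 25.1 and 31.0 CPM in WT and 23.98, 35.8 and 46.3 CPM in LynAKO (0.49, SE 0.089, limma adjusted p = 0.00586), with no overlap after LPS or R848.

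Slco2b1, an organic anion transporter, held 0.0713, 0.789 and 4.11 CPM in WT and 0.675, 1.56 and 9.99 CPM in LynAKO, a log2 fold change of 1.27 (SE 0.22, limma adjusted p = 0.00444). The untreated LynAKO libraries, at 9.99, 5.85, 6.61 and 4.70 CPM, were all above the untreated WT libraries, at 1.14, 3.52, 4.11 and 2.65 CPM, and the treated libraries overlapped. Single mouse omissions that ended a call were WT mouse 1 for Slco2b1 (adjusted p = 0.0725) and WT mouse 4 for Emp2 (0.104). Counted by mouse, 13 of the 20 genes had 4 LynAKO means that did not overlap the 4 WT means, against 276 of all genes (2.05%). These genes were already called on the same values, so the count is a description.

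**Figure D4:**
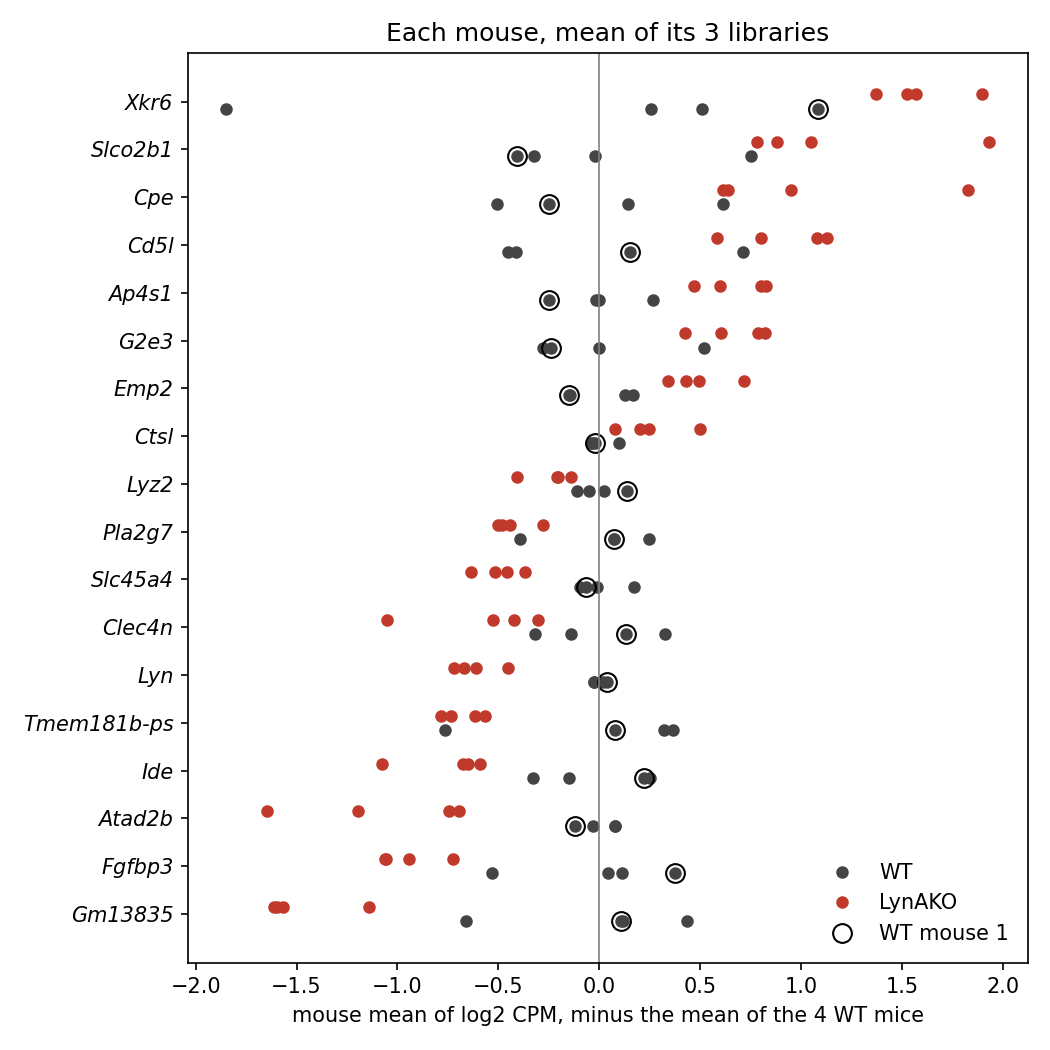
Mean log2 CPM of each mouse over its 3 libraries, minus the mean of the 4 WT mice, for 18 called genes (grey WT, red LynAKO, WT mouse 1 ringed). The genotypes overlap for Cd5l, G2e3, Pla2g7 and Cpe among others, and Lyn and Ide separate.

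Lists of genes by function gave few calls, and their members are described by counts beside the shares over all genes given above, without a test of the list. In each list the values are common log2 fold changes of LynAKO minus WT. The shares over all genes moved with the fit as well: at an unadjusted p below 0.05, 285 genes were higher and 209 lower of 13636 without WT mouse 1, 279 and 202 of 14552 by edgeR on the sums per mouse, and 571 and 575 of 13463 with the replicate block. In the lists described here for which no block value is given, the block added at most 1 gene in either direction at that level. Of 20 Src-family kinases and regulators, Lyn was called, and Pag1 (-0.27), Fgr (-0.19) and Ptprj (-0.14) were lower and Ptpn22 (0.25) higher at an unadjusted p below 0.05. Pag1 anchors Csk, Ptprj and Ptpn22 are phosphatases that act on Src-family kinases, and none of these was called. Of 26 activating receptors and ITAM adaptors, Clec4n was called, Clec7a (-0.16) was lower and Fcgr1 (0.20) higher at that level, and the replicate block gave 5 lower. Of 20 inhibitory receptors none was called, and Cd72 (0.27), Cd33 (-0.27), Cd22 (-0.34) and Clec4a3 (-0.17) had an unadjusted p below 0.05. With the replicate block 1 inhibitory receptor was called higher and 1 lower, and 2 and 5 had such a p.

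Genes of the ligands' own pathways, cytokines and chemokines gave no call. Of 28 genes of the Toll-like receptor pathway none was called or reached an unadjusted p below 0.05, and their median was -0.03. Tlr4 had 0.00 (95% interval -0.20 to 0.20), Tlr7 -0.09 (-0.28 to 0.09), Cd14 -0.05 (-0.19 to 0.09) and Csf1r, the M-CSF receptor, -0.03 (-0.12 to 0.06). Among 24 inflammatory cytokine genes and 21 chemokine genes none was called, and 1 of each, Tnfsf13b (0.49) and Cxcl14 (0.17), was higher at the unadjusted level. The 95% interval reached a median of 0.17 log2 units to either side for the pathway genes, 0.70 for the cytokines and 0.69 for the chemokines. A small difference is thus not shown for the last 2 lists.

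The induced cytokines are near 0 in NT, so they are given by treatment. After LPS, Tnf stood at 2865, 2324, 2776 and 2802 CPM in WT and 2742, 2782, 2528 and 2040 CPM in LynAKO, a difference of -0.10 log2 units (SE 0.16). Il6 after LPS held 65.3, 59.1, 80.7 and 78.8 CPM in WT and 68.0, 109.9, 78.7 and 50.8 CPM in LynAKO (0.08, SE 0.22). Il12b after R848, which encodes the p40 chain of interleukins, held 87.4, 87.2, 151.4 and 164.3 CPM in WT and 83.4, 102.7, 73.9 and 89.0 CPM in LynAKO (-0.43, SE 0.24). For all 3 genes the libraries of the genotypes overlapped and no treatment passed the test. Il1b had -0.09 (SE 0.18) after LPS and -0.20 (SE 0.18) after R848, Il10 0.19 (SE 0.14) and 0.36 (SE 0.15), and Cxcl10 0.14 (SE 0.17) and -0.03 (SE 0.22). Ifnb1, at a mean of 0.279 CPM in WT and 0.335 in LynAKO, was too low for its difference to be read (95% interval -0.90 to 1.39).

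Of 68 interferon-stimulated genes none was called. 57 of them had a log2 fold change above 0, with a median of 0.08, and Ifi206 (0.66), Slfn1 (0.65) and Ifi209 (0.33) were higher at an unadjusted p below 0.05. Leaving out WT mouse 1 gave 7 and a median of 0.11, and with the replicate block the number was 8. Of 30 NF-kB targets 4 were above 0, with a median of -0.07, and Icam1 and Tnfaip2 (both -0.14) were lower and Dusp1 (0.21) higher at that level. The replicate block gave 5 lower, and without WT mouse 1 there was 1. Among 22 immediate early factors Fos (0.34) was higher and Klf2 (-0.26) lower. The 15 MAP kinase feedback genes gave Dusp1 again and no other.

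Genes of protein folding in the endoplasmic reticulum were among those lower at the unadjusted level. Of 29 genes that respond to unfolded proteins or integrated stress none was called, and 13 were lower and none higher at an unadjusted p below 0.05, and the median was -0.13. Hsp90b1, the chaperone Grp94, averaged 608 CPM in WT and 519 in LynAKO (-0.23, SE 0.053, limma adjusted p = 0.0793). Calr (-0.21), Pdia6 (-0.25) and Hspa5 (-0.22), which encode calreticulin, a disulfide isomerase and the chaperone BiP, were among the 13. With the replicate block 4 of the 29 were called lower and 14 had such a p. The number without WT mouse 1 was 10 of 29, and edgeR on the sums per mouse gave 10 of 30, all lower. The median of the list against the same WT libraries was -0.09 in LynBKO and -0.29 in LynKO.

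Cell cycle genes lay on the higher side without a call. Of 49 G1/S and replication genes, 41 were above 0, the median was 0.12, and 8 were higher at an unadjusted p below 0.05, among them Tk1 (0.34), Mcm6 (0.24), Pcna (0.21) and Rrm2 (0.60). Without WT mouse 1, 5 genes had such a p, on the sums per mouse 4 and with the replicate block 11, none called. Of 61 G2/M genes the median was 0.15 and 3 reached that level, Spc25 (0.51), Cdca5 (0.34) and Kif20b (0.22). The G2/M median without WT mouse 1 was 0.06 with 2 genes at that level, and with the replicate block 0.14 with 7. Mcm5 had 0.24 (95% interval -0.04 to 0.51), Top2a 0.26 (-0.01 to 0.53), Ccnd1 0.21 (-0.25 to 0.66) and Mki67 -0.16 (-0.44 to 0.12). LynAKO mouse 1 had the highest mouse mean for Pcna (8.01 log2 CPM, other LynAKO mice 7.55 to 7.64) and Rrm2 (2.89, others 1.87 to 2.22). The same held for Mcm5 (4.06, others 3.10 to 3.455) and Ccnd1 (4.04, others 2.75 to 3.27). For Tk1 the LynAKO mice lay close together, at 3.45 to 3.73. The list counts were not taken without LynAKO mouse 1. Among 32 genes of D-type cyclins, CDK inhibitors and survival, Bbc3 (-0.21) and Foxo3 (-0.15) were lower at the unadjusted level.

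Among macrophage identity genes only Lyz2 was called. Of 27 mature macrophage markers Lyz2 was lower, Gpnmb (-0.18) and Gas6 (-0.20) were lower at an unadjusted p below 0.05, and Folr2 (0.81), Cd36 (0.30), Fcgr1 (0.20) and Lgmn (0.14) were higher at that level. The mouse mean of Folr2 was 7.15 log2 CPM in LynAKO mouse 1. The other LynAKO mice, at 6.00 to 6.39, lay within the WT range of 5.11 to 6.51. With the replicate block 1 marker was called higher and 3 lower, with 7 and 4 at the unadjusted level. The list's median was -0.02. The summed level of the 29 markers ran from 71320 to 80440 CPM in untreated WT and from 65880 to 69190 in untreated LynAKO, and the ranges also did not overlap after LPS (47810 to 53580 against 43500 to 46150) or R848 (50570 to 54770 against 47450 to 50120). Abundant members carry much of the sum: Lyz2 averaged 26980 CPM in WT and 22800 in LynAKO, and Gpnmb 11760 and 10390. The part of this lower sum in the other differences was not tested, and in bulk RNA fewer cells of a type and less RNA per cell cannot be told apart. The neutrophil marker sum was 154.6 to 191.4 CPM in untreated WT and 134.3 to 166.2 in untreated LynAKO, and the monocyte marker sum 798.9 to 875.4 and 814.6 to 1002.0, with overlap. After LPS the neutrophil sum was 242.9 to 279.0 CPM in WT and 219.6 to 236.5 in LynAKO, without overlap. Much of this sum is Csf3r, which averaged 137.4 CPM in WT and 124.2 in LynAKO, and Mmp8, at 34.3 and 23.6. Of the 8 neutrophil markers tested, 5 were above 0, with a median of 0.18, and none was called. At an unadjusted p below 0.05, 2 were lower, Mmp8 (-0.51) and Csf3r (-0.14), and 0 higher. With the replicate block 1 neutrophil marker was called lower.

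Lysosome and lipid genes gave 1 call. Of 39 lysosome genes Ctsl was called higher, and 7 were lower at an unadjusted p below 0.05, among them Psap (-0.18), Ctsk (-0.66) and Tpp1 (-0.19). Without WT mouse 1, 2 lysosome genes were lower at that level and Ctsl was not called, and with the replicate block 11 were lower. Of 22 LXR target and lipid-handling genes 6 were higher, including Pparg (0.36), Lpl (0.37) and Pltp (0.28), and 2 lower, Fabp5 (-0.19) and Scd2 (-0.24). These counts were 3 and 1 without WT mouse 1. The mouse mean of Lpl was 10.54 log2 CPM in LynAKO mouse 1. The other LynAKO mice, at 9.81 to 9.90, lay within the WT range of 9.24 to 10.13. For Pparg all LynAKO mice (3.95 to 4.27) were above the WT mice (3.59 to 3.82). Of 23 cholesterol synthesis genes 2 were above 0, with a median of -0.08, and Lss (-0.19) alone reached the unadjusted level.

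Antigen presentation genes were not called in the main fit, and the size of several differences depended on WT mouse 1. Of 20 genes 7 were higher at an unadjusted p below 0.05, and Cd74, the invariant chain, was lower. Without WT mouse 1, 6 were higher and none lower at that level, and with the replicate block 3 were called higher. H2-DMb1, a chain of the peptide-loading molecule H2-DM, had 1.58 with all mice and 0.43 without WT mouse 1, where it held 0.364 to 0.731 CPM against 14.5 to 30.7 CPM in the other 7 mice. Cd74 had -1.32 with all mice and -0.21 without WT mouse 1, which held 1750 to 3688 CPM. Mr1, which presents vitamin B metabolites, was not called in the main fit (limma adjusted p = 0.0888). Without WT mouse 1 it was called, at 0.63 (SE 0.096, limma adjusted p = 0.00139), as was H2-Q6. Among the other alternatives, the fit of all 48 libraries called Mr1, H2-Q6, H2-DMb1 and B2m between LynAKO and WT. B2m was also called with a term for sex and without WT mouse 4. B2m, the light chain of class I molecules, had 0.30 with all mice and 0.19 without. Paralogous H2 genes share sequence, which makes their counts uncertain.

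Metabolic lists gave no calls. None of 40 cytosolic ribosomal protein genes or of 29 glycolysis and HIF-1 genes reached an unadjusted p below 0.05, with medians of 0.01 and 0.03. Of 41 oxidative phosphorylation genes the mitochondrially encoded mt-Nd2 (0.26), mt-Nd1 (0.20) and mt-Cytb (0.16) were higher at that level. Of 24 NRF2 targets Hmox1 (0.31), the haem-degrading enzyme, was higher and Gsta3 (-0.77) lower. None of these genes was called.

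The difference between the genotypes was not shown to depend on treatment. In limma's interaction test no gene passed (0%), 396 had an unadjusted p below 0.05, and the count stayed at 0 in all alternatives but that without a filter on low counts, which gave 2. In single treatments limma called 4 genes in NT (0.0297%), 2 after LPS (0.0149%) and 2 after R848 (0.0149%). The NT calls were Lyn (adjusted p = 0.000891), Capn11 (0.00388), Ap4s1 (0.00711) and Ide (0.0160), and both ligand treatments gave Lyn and Atad2b. With the replicate number as a block the counts were 8 in NT and 5 after R848. Leaving out 1 mouse at a time gave 1 to 10 calls in NT (1 without WT mouse 1, 9 and 10 without WT mice 2 and 3). It gave 1 to 4 after LPS (4 without WT mouse 1 or 2, 1 without WT mouse 4 or LynAKO mouse 1) and 1 to 4 after R848 (4 without WT mouse 3, 1 without LynAKO mouse 1 or 4).

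LynAKO differed from LynBKO in few genes and from LynKO in many. In the fit of 48 libraries and 13986 genes, 4 genes (0.0286%) differed between LynAKO and LynBKO. Pltp, the phospholipid transfer protein, was 0.57 higher in LynAKO (SE 0.087, limma adjusted p = 0.000371) and Fcrls 0.68 higher (SE 0.14, adjusted p = 0.0375), while Ltbp2 was 0.52 lower (SE 0.0995, adjusted p = 0.0224) and Itgb7 0.49 lower (SE 0.096, adjusted p = 0.0286). None of the 20 genes was among the 4. The count was 27 with the replicate block and 1 to 25 with any 1 of the 8 mice left out, 25 without LynAKO mouse 2 and 20 without LynAKO mouse 3. In LynBKO the untreated libraries numbered 2 and 3 carry the opposite sex to the other libraries of those numbers, and the untreated library of mouse 4 held both Xist and Y-linked transcripts, as did that of LynKO mouse 4. Without these 2 libraries of mouse 4 the count was 2. The fit of 48 libraries, also with a mouse left out, took each number as 1 mouse, so its mouse block was wrong for LynBKO numbers 2 and 3. No fit regrouped those libraries, and the values from the fit of 48 carry this limit.

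Between LynAKO and LynKO 1359 genes differed (9.72%), 697 higher in LynAKO (4.98%) and 662 lower (4.73%). 9 of the 20 genes were among them: Lyn, Capn11, Cd5l, Slco2b1, Emp2, Pla2g7, Clec4n, Lyz2 and Cpe. Against the same WT libraries, Cd5l stood at 0.74 in LynBKO and 2.10 in LynKO, Cpe at 1.27 and 2.62, Slco2b1 at 1.28 and 2.30, and Emp2 at 0.46 and 1.00. On the lower side Clec4n stood at -0.48 in LynBKO and -1.78 in LynKO, Lyz2 at -0.25 and -0.76, and Pla2g7 at -0.25 and -0.79. For these 7 genes and Lyn the LynAKO value lay between WT and LynKO. The test of LynAKO minus LynKO gave -1.22 for Cd5l (limma adjusted p = 5.2e-10), -1.56 for Cpe (1.2e-10), 1.19 for Clec4n (3.5e-09) and 0.51 for Lyz2 (1.2e-10). Capn11 was the exception, 4.65 above LynKO (adjusted p = 0.0025), where it stood at -0.12 against WT. In LynBKO Capn11 stood at 2.31 against WT (SE 1.13, limma adjusted p = 0.441), and LynAKO minus LynBKO was not called (limma adjusted p = 0.368).

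The other 11 genes were not called between LynAKO and LynKO. Ide stood at -0.75 in LynBKO and -0.58 in LynKO, Atad2b at -0.77 and -0.99, Gm13835 at -1.65 and -1.61, G2e3 at 0.73 and 0.84 and Xkr6 at 1.48 and 1.80. The 3 knockouts share the WT libraries, so what is particular to the WT mice enters all of these values. As counts, against WT, LynBKO had 152 called genes (1.09%) and LynKO 2948 (21.1%). The G2/M genes showed the distance to LynKO as well: 53 of 61 were called lower in LynAKO than in LynKO and none higher. The shares over all genes were 4.73% lower and 4.98% higher. The median of LynAKO minus LynBKO over the G2/M genes was -0.24, with none called. Of the folding genes 12 of 29 were called higher in LynAKO than in LynKO and 1 lower, and their median difference was 0.16.

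**Figure D5:**
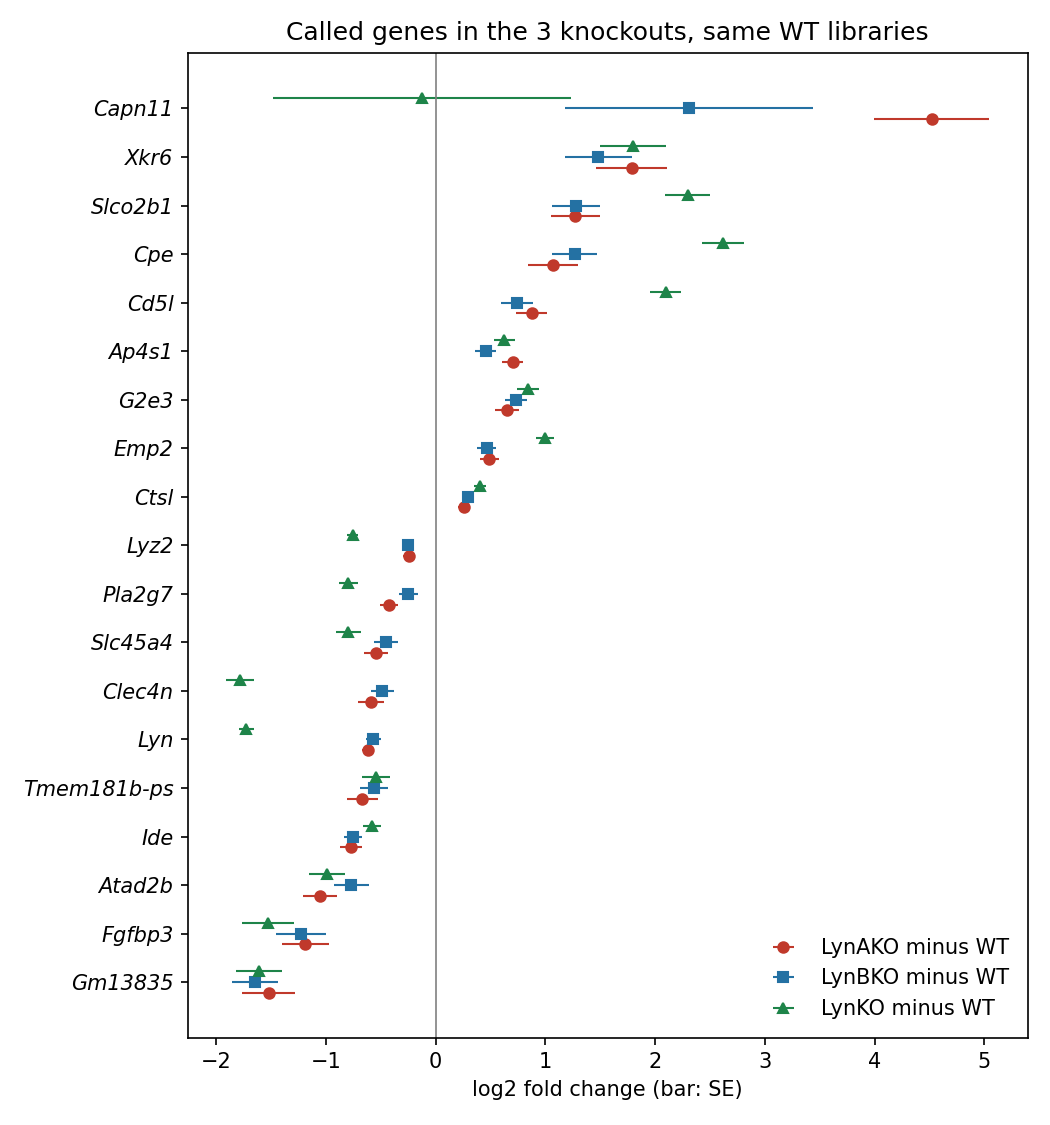
Log2 fold change (bars, SE) of LynAKO, LynBKO and LynKO minus the same WT libraries for 19 of the called genes (LynAKO from the fit of 24 libraries, the other knockouts from that of 48). Cd5l, Cpe, Slco2b1, Emp2, Clec4n, Lyz2 and Lyn lie farther from 0 in LynKO than in LynAKO, and Ide and Gm13835 lie close together.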

How the data were processed

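RNA of mouse bone marrow-derived macrophages was sequenced, and the authors deposited raw read counts per gene for 48 libraries, used here as counts. The submitters' processing notes name STAR 2.5.2b, Trimmomatic 0.36, Subread 1.5.2 with featureCounts, and DESeq2, and build GRCm38; no annotation release or strand setting is given in the sources used here. Gene names come from GENCODE, which matched 49056 of 49315 genes.

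The comparison, its named genes and its gene lists were chosen with earlier results of these data known. For LynAKO against WT, genes were kept by filterByExpr of edgeR 4.0.16 (minimum count 10, minimum total 15) over 6 groups, scaled by TMM and fitted with voom in limma 3.58.1 (R 4.3.3), with the mouse as a random block (consensus correlation 0.2523). Some genes that counts and lists include are not reported here by name. Benjamini-Hochberg adjustment ran over all 13463 genes. The 12 libraries of a genotype are 4 mice, each marrow differentiated and treated separately. The labels tie replicate numbers 1 and 2 to males and 3 and 4 to females. Deviations of same-numbered WT and LynAKO mice from their genotype means correlated at 0.181, 0.226, 0.363 and 0.513 (over autosomes 0.064, 0.060, 0.227 and 0.437). WT mouse 2 correlated more with LynAKO mouse 1 (0.281, over autosomes 0.147), and WT mouse 1 with LynAKO mouse 2 at 0.169 (0.029). Pairing by number is thus not shown for mice 1 and 2, and the main model has no term for it. Values with the number as a block are printed where they move a count of calls by over 1.5 times. Replicate libraries were not duplicates: the chi-square per gene was at least 6.02 in each pair. Depth was 14974764 to 22783998 counts per library, which limits genes near 1 CPM most.

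Named genes were Lyn, the called genes, and a list of kinases, cytokines, cell cycle genes and receptors; other genes are list members at an unadjusted p below 0.05, neighbours of called genes within 1 Mb or genes that set WT mouse 1 apart. Both this limma fit and edgeR's test on counts summed per mouse were tested on 1 simulated data set with known changes. There the limma fit recovered more of the changes and made more false calls than the adjusted p threshold allows. Alternatives were other scaling, no filter, quality weights, independent libraries, sex or replicate number as a term, all 48 libraries, single treatments or mice left out, edgeR, DESeq2 1.42.0 and limma on sums per mouse.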

Additional observations from a re-analysis of the deposited data

Results flagged for a closer look

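Among 78 sets of 4 mouse means of named genes, 3 had an end mouse whose gap to the nearest other, as a share of the whole range, was above Dixon's 95% limit for 4 values; chance gives about 1 in 20. Ide of LynAKO mouse 4 was the lowest of its genotype, with a mean of 4.55 log2 CPM against 4.96 for the nearest mouse and a gap share of 0.835. Gm13835 of LynAKO mouse 1 was the highest of its genotype, at 1.05 against 0.62 log2 CPM, with a gap share of 0.906. Ctsl of WT mouse 2 was the highest of its genotype, at 10.36 against 10.24 log2 CPM, with a gap share of 0.859.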

How the results depend on the processing

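The count of 20 common calls became 37 without a filter on low counts, 71 with libraries taken as independent, 32 with a term for sex, 83 with the replicate block, 34 with 48 libraries, 8, 4 and 8 without NT, LPS and R848, 38 by edgeR on 24 libraries and 1 by edgeR or (added after seeing the data) limma on sums per mouse; DESeq2 on those sums gave 19. Leaving out a mouse gave 11 to 33. The interaction count was 2 without a filter and 0 to 0 with a mouse left out. NT gave 10 without a filter, 8 with the replicate block, 8 without the untreated WT mouse 2 library (added after seeing the data) and 1 to 10 with a mouse left out. LPS gave 1 without a filter, 5 with quality weights, 1 with independent libraries and 1 to 4 with a mouse left out. R848 gave 1, 1, 5 and 4 without a filter, with independent libraries, with the replicate block and with 48 libraries, and 1 to 4 with a mouse left out. LynAKO minus LynBKO gave 11 without a filter, 43 with independent libraries, 27 with the replicate block, 9 in a fit of the 24 libraries of these genotypes, 2 without the untreated mouse 4 libraries of LynBKO and LynKO, and 1 to 25 with a mouse left out. LynAKO minus LynKO gave 2382 with independent libraries and 1027 to 1463 with a mouse left out. The replicate block ended no call among the 20 and, apart from these counts and the gene lists given above, moved no count of calls by more than 1.5 times. The causes were not tested. The log2 fold changes of the called genes kept their sign in each setting run, with 325 values still past the threshold and 135 not. Of the other named genes 8, all uncalled, changed sign in 35 values. In the main fit Ifnb1 (0.24, 95% interval -0.90 to 1.39) and Ccnd1 (0.21, -0.25 to 0.66) lay farthest from 0 among these. With a mouse left out the values ran from -0.061 to 0.066 for Fyn, -0.165 to 0.113 for Il6, -0.013 to 0.57 for Ifnb1, -0.040 to 0.16 for Cxcl10, -0.073 to 0.55 for Ccnd1, -0.066 to 0.0073 for Csf1r, -0.055 to 0.105 for Tlr4 and -0.203 to 0.00043 for Tlr7. Fyn had -0.0088 without NT, -0.028 without R848, -0.0013 by edgeR and -0.0059 by DESeq2 on sums. Il6 had 0.00017 without a filter, 0.093 with quality weights, 0.083 without R848, 0.0084 by edgeR and 0.0039 by DESeq2 on sums. Cxcl10 had -0.0026 with independent libraries, -0.099 without LPS and -0.12 by edgeR on 24 libraries. With quality weights Csf1r had 0.018 and Tlr7 0.0047. Tlr4 had -0.0063 without NT, -0.016 without LPS and -0.0051 without the untreated WT mouse 2 library. Depth limits Capn11, Ifnb1 and the untreated cytokines, whose libraries hold few or no counts.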
